A study of Homo sapiens with 20 samples.

Results

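The comparison described here sets the effect of arsenite against the effect of 1 h of tunicamycin on the RNA bound by IGF2BP3 in HCT116 cells. It used the 12 anti-IGF2BP3 libraries of 4 groups, with 3 libraries each, out of 20 libraries in the series. For every gene the quantity of interest was the arsenite effect (arsenite minus PBS) minus the tunicamycin effect (TM 1 h minus DMSO), on the log2 scale. A positive value means a more positive change under arsenite. HCT116 is a human colorectal carcinoma line, and all groups carried the Tet-OsTIR1-PURO genotype and had been fed 100 µM 4-thiouridine for 15 h. The PBS group received that vehicle for 2 h, and the arsenite group received 250 µM for 2 h; the sample titles call the agent arsenite and other label fields call it arsenate. The DMSO group received its vehicle for 4 h, and the TM 1 h group received 5 µg/mL tunicamycin for 1 h, so the tunicamycin arm compares 1 h of drug with 4 h of vehicle. The 1 h is that of the titles and treatment labels; the treatment protocol gives 4 h for tunicamycin and does not mention 1 h. No separate cultures are named for the replicates, and the p-values below measure the spread between these libraries, which may be technical.

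IGF2BP3 is an oncofetal RNA-binding protein whose KH domains contact short motifs that often hold CAU, and it is known for binding and stabilising messenger RNAs in tumours. In PAR-CLIP (photoactivatable ribonucleoside-enhanced crosslinking and immunoprecipitation), RNA that carries 4-thiouridine is crosslinked to the protein with ultraviolet light, and sequencing shows T-to-C conversions where the protein touched it. Arsenite reacts with thiols and raises oxidative and protein-folding stress, while tunicamycin blocks N-glycosylation and so causes folding stress in the endoplasmic reticulum (ER). A count rises with the amount of an RNA and with how much of it is bound, and these cannot be told apart here.

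Depth differed between the libraries and the groups. Gene-count totals were 130478 to 423906 in PBS, 414033 to 1098488 under arsenite, 374238 to 1287291 in DMSO and 227961 to 1069328 at TM 1 h, with PBS replicate 2 the smallest. By their names, the libraries of the arsenite experiment form a set of their own, while those of the tunicamycin experiment are split, with replicate 3 of DMSO and of TM 1 h apart from replicates 1 and 2. The arms share no library, and stress and library set cannot be told apart between them. The 4 matching IgG libraries held at most 17503 gene counts. Of the colorectal epithelial markers, 8 of 11 had at least 1 cluster (a group of overlapping crosslinked reads called by the authors), among them EPCAM, KRT8 and CDH1, while none of 6 fibroblast, 6 leukocyte or 4 endothelial markers had any.

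The 2 short stresses had different effects on many genes, and most of them passed the test in the arsenite arm alone. In the gene count table, edgeR's quasi-likelihood test called the difference of effects for 1570 of 7261 genes (21.6%) at a Benjamini-Hochberg adjusted p under 0.05. Of these, 780 had the more positive and 790 the more negative change under arsenite; 450 and 232 of them differed at least 2-fold. Arsenite itself changed 2329 genes (32.1%), 1200 upward and 1129 downward. Tunicamycin for 1 h changed 58 genes (0.799%), 17 upward (0.234%) and 41 downward (0.565%); without DMSO replicate 3 or TM 1 h replicate 2 the tunicamycin calls numbered 30 and 32. Among the 1570 genes, 1396 passed the test in the arsenite arm alone, 7 in the tunicamycin arm alone, 138 in neither arm, 3 in both arms in the same direction and 26 in both arms in opposite directions.

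**Figure D1:**
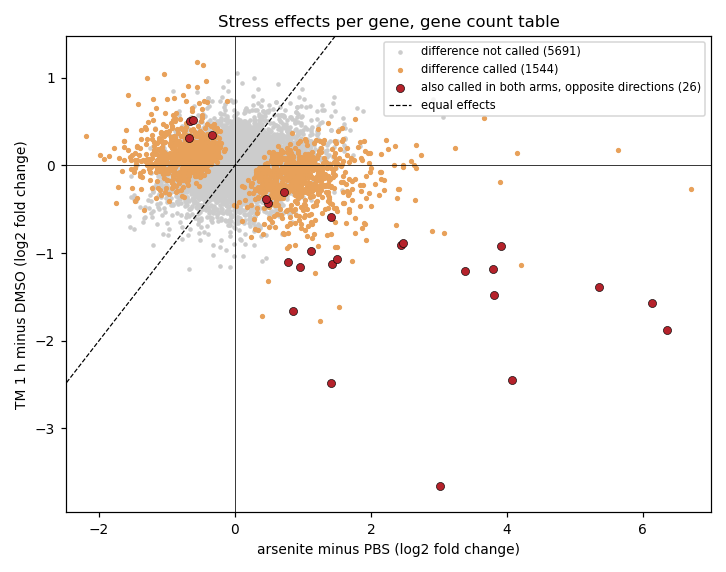
Log2 fold change at TM 1 h against DMSO (vertical axis) plotted over the log2 fold change under arsenite against PBS (horizontal axis), 1 point per gene of the count table. Orange points passed the test of the difference; the 26 red points also passed in both arms in opposite directions, and 22 of them lie at the lower right, up to 6.35 under arsenite and down to -3.66 at TM 1 h.

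The 26 genes that moved in opposite directions made up 0.358% of those tested. Of them, 22 rose under arsenite and fell at TM 1 h, and 4 fell under arsenite and rose at TM 1 h. In the group of 22, the arsenite effect ran from 0.46 to 6.35 (median 1.97, log2) and the tunicamycin effect from -3.66 to -0.30 (median -1.14). The value of -3.66 came from an entry with 8, 4 and 72 reads in DMSO and 1, 1 and 2 at TM 1 h, whose CPM overlapped. The group of 4 moved less, with arsenite effects of -0.68 to -0.34 and tunicamycin effects of 0.32 to 0.52. The libraries did not overlap in either arm for 18 of the 22 and for all 4 of the others. Over all 7261 genes, arsenite and PBS did not overlap for 41.6%, TM 1 h and DMSO for 15.7%, and both held for 537 genes. The 26 were chosen by tests on these same libraries, which favours non-overlap, so it adds no separate support.

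The vehicles of the 22 genes also differed. DMSO lay above PBS for 19 of the 22 (median 0.75, log2), and 8 passed the test of DMSO against PBS as higher, against 48 of all 7261 genes. Relative to PBS rather than DMSO, the TM 1 h level of these genes had a median of -0.29. The 22 were chosen for arsenite above PBS and TM 1 h below DMSO, which favours low PBS and high DMSO values. Shares over all genes are therefore not a like baseline for the vehicles of the 22. DMSO replicate 3 was the highest of the 6 libraries of the tunicamycin experiment for 19 of the 22, against 758 of 7261 genes (10.4%). Without that library the oppositely moving genes numbered 11, of which 8 were among the 26. They numbered 16, all among the 26, without TM 1 h replicate 2, and 6, all among the 26, when the tunicamycin arm was limited to replicates 1 and 2, which share a set. They numbered 38 with the library set as a covariate and 33 with the replicate number as a block, both times with all 26 among them, and 3, all among the 26, in DESeq2. The 4 genes of the reverse kind numbered 0 without PBS replicate 1, and 1 without DMSO replicate 2, TM 1 h replicate 1 or TM 1 h replicate 2. The part of vehicle time and library set in these falls was not tested.

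**Figure D2:**
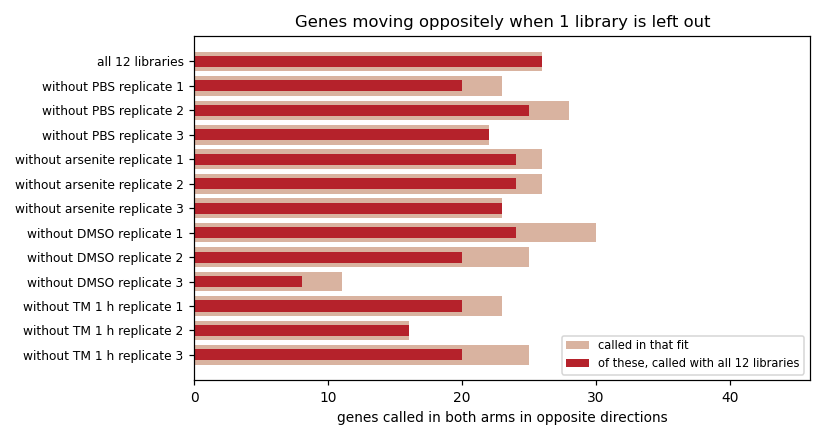
Number of genes called in both arms in opposite directions when all 12 libraries were used and when each was left out in turn. Wide bars give all such genes in a fit and narrow bars those also called with all 12; the count fell from 26 to 11 without DMSO replicate 3 and to 16 without TM 1 h replicate 2.

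The gene table lists Ensembl identifiers with no symbols, and no table used here pairs them, so 4 entries are given by identifier. ENSG00000122877_16 had 4.853, 0 and 7.635 CPM (read counts scaled to a common library total) in the PBS libraries, 461.6, 551.6 and 375.6 under arsenite, 13.77, 12.8 and 27.26 in DMSO, and 0, 8.918 and 4.81 at TM 1 h. All arsenite libraries lay far above PBS, and all TM 1 h libraries lay below DMSO. The raw counts were low outside arsenite, at 2, 0 and 3 in PBS, 5, 12 and 34 in DMSO, and 0, 4 and 5 at TM 1 h. The tunicamycin effect of this entry, -1.88, therefore rests on few reads (edgeR adjusted p = 0.0283). Its difference of effects was 8.22 ± 0.62 (SE, n = 3 per group; edgeR adjusted p = 1.81e-22). ENSG00000179388_9 had 16.98, 23.95 and 12.72 CPM in PBS, 1131, 1451 and 898.5 under arsenite, 27.55, 34.14 and 89.8 in DMSO, and 9.234, 15.61 and 24.05 at TM 1 h. The groups again did not overlap in either arm, and the difference was 7.70 ± 0.41 (edgeR adjusted p = 4.15e-34). Its tunicamycin effect was -1.57 with all libraries (adjusted p = 0.00048) and -0.69 without DMSO replicate 3 (adjusted p = 0.518). In the IgG libraries of PBS, arsenite, DMSO and TM 1 h, ENSG00000122877_16 had 0, 4, 1 and 0 raw counts. ENSG00000179388_9 had 0, 3, 4 and 0 there. The arsenite IgG library held only 9366 counts in all, so these few reads are not negligible and background was not tested.

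The reverse pattern had a smaller amplitude. ENSG00000205250_9 had 208.7, 127.7 and 132.3 CPM in PBS, 106.5, 84.35 and 114.7 under arsenite, 192.8, 191 and 158 in DMSO, and 304.7, 240.8 and 238.6 at TM 1 h. Every arsenite library lay below PBS and every TM 1 h library above DMSO. The difference was -1.17 ± 0.22 (edgeR adjusted p = 8.94e-06). ENSG00000186575_19 behaved alike, with a mean of 142.2 ± 21.9 CPM (SD, n = 3) in PBS, 93.4 ± 17.8 under arsenite, 174.9 ± 20.4 in DMSO and 247.3 ± 31.7 at TM 1 h. Its difference was -1.14 ± 0.22 (edgeR adjusted p = 3.46e-05).

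To attach names, the reads of the authors' clusters were summed over the RefSeq gene in which each cluster lies on the hg38 genome, and the same contrast was fitted to the 891 genes with a mean of at least 100 such reads. The difference was called for 173 genes (19.4%), 104 with the more positive and 69 with the more negative change under arsenite. Without DMSO replicate 3 it was called for 115 genes, and leaving out any 1 of the arsenite libraries, DMSO replicate 2 or 3, or TM 1 h replicate 1 or 2 left 31 to 44 genes with the more negative change. Arsenite changed 289 genes (32.4%), 161 upward and 128 downward. Tunicamycin for 1 h changed 0 of the 891 genes in edgeR, with 47 at an unadjusted p under 0.05, so tunicamycin values of named genes below are given with unadjusted p-values. The cluster lists hold only called clusters: a library with none for a gene is shown as 0, which need not mean that no read was present. Cluster reads in genes totalled 33831 to 203995 per library in PBS, 186019 to 715605 under arsenite, 171071 to 927483 in DMSO and 84427 to 730149 at TM 1 h, and the part of clusters missed in shallow libraries was not tested. In all, 724 of the 891 genes had clusters in all 12 libraries. The arms had opposite signs for 59.3% of these 891 genes and for 51.3% of the genes in the count table.

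Counting a gene as oppositely moving when its difference was called and both arms had an unadjusted p under 0.05 in opposite directions gave 22 named genes (2.47%), 19 higher under arsenite and lower at TM 1 h, and 3 the reverse. In the count table the same rule gave 221 genes (3.04%), 123 and 98. The 19 were EGR1, EGR3, FOSB, NR4A1, KLF10 and ATF3, which encode transcription factors of the immediate early and stress responses; the signalling and decay regulators ZFP36, DUSP5 and PLK2; and ARID2, CLTC, FAM53C, POLR2A, TIPARP, PRRC2C, FAT1, ANKRD17, MIDN and EIF3L. The 3 were SH3GL1, BPNT2 and EFCAB6. The groups did not overlap in either arm for 15 of the 19 and all 3 of the others, against 77 of the 891 genes. Arsenite and PBS did not overlap for 51.4% of the 891, nor TM 1 h and DMSO for 15.7%. Here too the choice of the 22 by both arms favours non-overlap, which adds no separate support. None of the 22 had a cluster in an IgG library, and 50 of the 891 genes did. The IgG libraries held only 92 to 637 cluster reads in genes, so the absence of a cluster shows little about background. DMSO lay above PBS for 16 of the 19 (median 0.33, log2) and for 519 of all 891 genes. Relative to PBS, the TM 1 h level of the 19 had a median of -0.31. The choice of the 19 favours low PBS and high DMSO values, so the share over all genes is not a like baseline. The 19 were chosen for TM 1 h below DMSO, which favours a DMSO library as the highest. DMSO replicate 3 was the highest of its 6 libraries for 13 of the 19, against 15.9% of the 891 genes. Leaving it out lowered the count from 22 to 10 genes; leaving out TM 1 h replicate 1 or 2 gave 13 each, and leaving out TM 1 h replicate 3 gave 49.

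Stretches of 30 bases are shown for 6 of these genes and for RHOA and BANF1, which are among the genes called lower. These are genes whose values carry the result. Each stretch lies at or near the point that the authors' lists give as the mode of the main cluster. It marks a place in the cluster and not a contact. The EGR1 stretch holds no T, so no T-to-C conversion can lie inside it. CAT, the DNA form of the CAU that IGF2BP proteins contact, is in capitals wherever a script found it on the strand of the RNA, and exon positions were not annotated.
EGR1, chr5:138467425-138467454, + strand: aaccggcccagcaagacgcccccccacgaa
ATF3, chr1:212620242-212620271, + strand: cccagcgttaacacaaaatcCATgggcagt
DUSP5, chr10:110511238-110511267, + strand: tgggtcagtggcggtgcaaactggtttcct
FAM53C, chr5:138349256-138349285, + strand: CATttaaaagcagcctatgattgcttcttt
FAT1, chr4:186587897-186587926, - strand: tttagaaccaaaaccacCATgacacagttt
SH3GL1, chr19:4360483-4360512, - strand: ctgctctgccctgccctgcacccccctcgt
RHOA, chr3:49359966-49359995, - strand: gccctcctctgcactcccacctgacacacc
BANF1, chr11:66003781-66003810, + strand: gggaagctctcaatccccagccctCATcca
The main region was the one called in the most of the 12 libraries, and it held 60.33% of the cluster reads of EGR1, 96.48% of those of ATF3, 80.8% of those of DUSP5 and 12.79% of those of FAT1, whose reads were spread over 80 regions. CAT occurred in 7 of the 22 windows of the oppositely moving genes (31.8%), in 33 of 104 windows of genes called higher (31.7%), in 26 of 69 of genes called lower (37.7%) and in 312 of all 891 (35.0%). Over all 50869 regions long enough to give a window, 49.4% held CAT. The share in the oppositely moving genes was therefore close to that of the tested genes.

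EGR1, an immediate early zinc-finger transcription factor induced by growth signals and stress, had the most reads of the 22. Its cluster reads were 1300, 2385 and 2181 CPM in PBS, 36170, 30910 and 26650 under arsenite, 3548, 2387 and 4379 in DMSO, and 1141, 1040 and 1769 at TM 1 h. The arsenite libraries stood above all others, and each TM 1 h library was below each DMSO library. It rose 16.4-fold under arsenite (log2 4.03 ± 0.33 SE; edgeR adjusted p = 5.33e-06), while the TM 1 h level was 0.390 of DMSO (log2 -1.36 ± 0.30, unadjusted p = 0.000555, adjusted p = 0.247). The difference was 5.39 ± 0.44 (adjusted p = 1.42e-05) and stayed between 5.14 and 5.76 under the alternatives that were run. For EGR1, DMSO lay above PBS by 0.85 (log2, edgeR unadjusted p = 0.0152, adjusted p = 0.178), and TM 1 h overlapped PBS. The length covered by EGR1 clusters had a median of 931 bases in PBS, 2919 under arsenite, 2170 in DMSO and 775 at TM 1 h, and the reads per covered base had medians of 0.215, 2.3, 0.501 and 0.241.

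ATF3, a stress-induced bZIP transcription factor, gave 689.2, 0 and 543.5 CPM in PBS, 4483, 4494 and 3277 under arsenite, 828.4, 696.1 and 1267 in DMSO, and 308.4, 433.8 and 535.1 at TM 1 h. The zero was in PBS replicate 2, the shallowest library. The difference was 4.03 ± 0.55 (edgeR adjusted p = 0.000401). KLF10, a Krüppel-like factor induced early by TGF-beta, gave 299.1, 0 and 190.6 CPM in PBS, 1197, 1230 and 1708 under arsenite, 375.1, 406.3 and 544.2 in DMSO, and 107.9, 55.62 and 144 at TM 1 h. TM 1 h was below DMSO in every library, at 0.243 of its level (unadjusted p = 0.000495), the lowest unadjusted p of the tunicamycin arm among the named genes. The difference for KLF10 was 4.78 ± 0.63 (adjusted p = 0.000325).

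Several immediate early genes had few or no clusters outside arsenite. FOSB, a partner of JUN proteins in the AP-1 factor, had 376, 758 and 793 cluster reads under arsenite, 4, 0 and 92 in DMSO, and was listed with no cluster in PBS and TM 1 h. EGR3, a relative of EGR1, had 344, 780 and 858 reads under arsenite, 0, 9 and 52 in DMSO, and none in the other groups. FOS, another AP-1 component, had 655, 1102 and 1716 reads under arsenite, 0, 0 and 38 in DMSO, 0, 0 and 16 at TM 1 h and none in PBS; its call was lost without DMSO replicate 3 (adjusted p = 1). NR4A1, an orphan nuclear receptor, had 14, 0 and 0 reads in PBS, 444, 813 and 1235 under arsenite, 14, 53 and 447 in DMSO, and 0, 12 and 41 at TM 1 h. ZFP36, which binds AU-rich elements and promotes decay of cytokine messages, had 5, 0 and 0 reads in PBS, 338, 543 and 936 under arsenite, 0, 38 and 97 in DMSO, and 0, 0 and 13 at TM 1 h. With so many libraries at 0 no fold is given for these 5 genes; in CPM every arsenite library stood above every other library in each of them, and in DMSO most of the reads were in replicate 3.

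DUSP5, a phosphatase that acts on nuclear ERK, had effects of similar size and opposite sign in the arms. It had 598.2, 587.2 and 458.8 CPM in PBS, 1575, 1685 and 1231 under arsenite, 742.5, 586.3 and 1346 in DMSO, and 215.9, 289.2 and 465 at TM 1 h. It rose 2.76-fold under arsenite (edgeR adjusted p = 0.00526) and measured 0.387 of DMSO at TM 1 h (unadjusted p = 0.00089); the difference was 2.83 ± 0.46 (adjusted p = 0.00122). PLK2, a stress-responsive polo-like kinase, gave 409.6, 183.5 and 465.9 CPM in PBS, 1743, 1478 and 1471 under arsenite, 437.7, 432.6 and 547.4 in DMSO, and 231.3, 305.9 and 398.9 at TM 1 h. Its difference was 2.52 ± 0.36 (adjusted p = 0.000458).

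**Figure D3:**
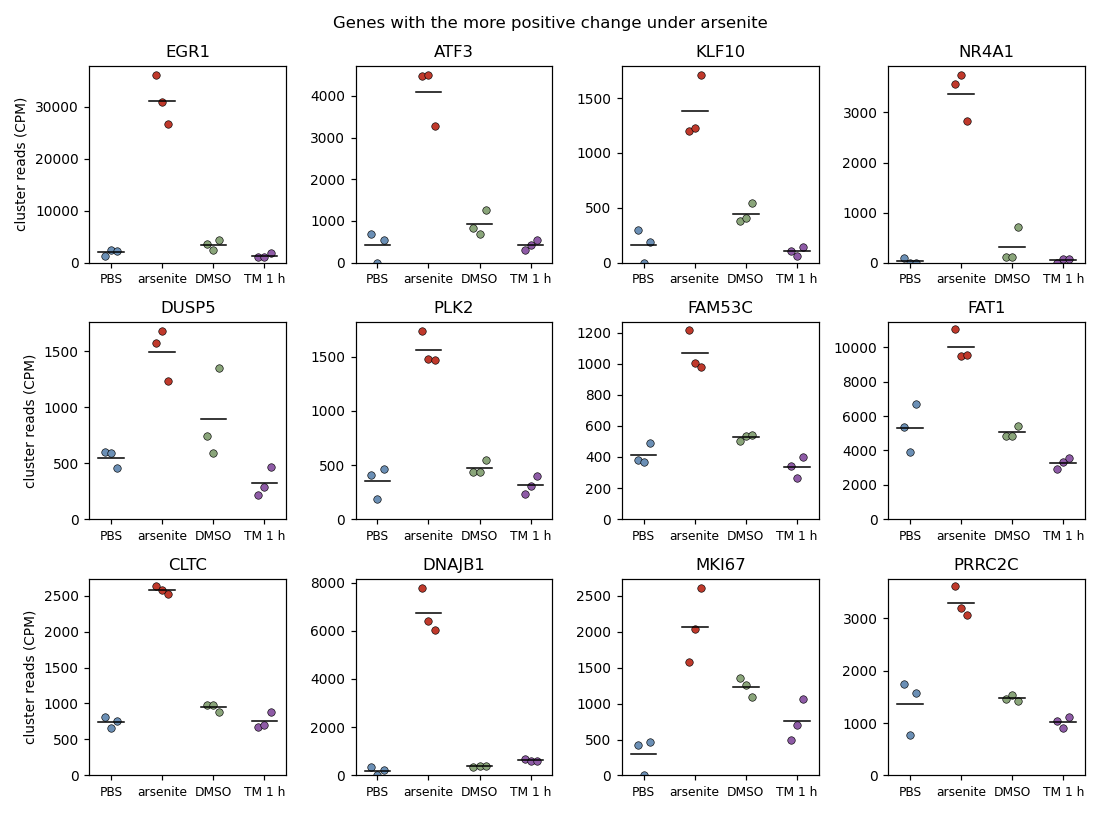
Cluster reads (CPM, scaled over the 891 tested genes) in each of the 12 libraries for 12 genes whose change was more positive under arsenite; points are libraries and bars are group means. Each vertical axis starts at 0 and has its own scale. EGR1, for example, lay between 26650 and 36170 under arsenite and between 1040 and 4379 in the other 9 libraries.

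Genes outside the transcription factor and feedback lists also moved oppositely. FAT1, a large protocadherin, gave 5357, 3890 and 6692 CPM in PBS, 11060, 9477 and 9534 under arsenite, 4861, 4847 and 5442 in DMSO, and 2899, 3331 and 3582 at TM 1 h. The groups did not overlap in either arm. The TM 1 h level was 0.650 of DMSO (unadjusted p = 0.00688), DMSO and PBS differed by -0.09 on the log2 scale, and the difference of effects was 1.52 ± 0.28 (edgeR adjusted p = 0.00226). CLTC, the clathrin heavy chain, gave 819.2, 660.6 and 762.4 CPM in PBS, 2635, 2583 and 2526 under arsenite, 976.9, 981.6 and 880 in DMSO, and 678.4, 695.2 and 877.5 at TM 1 h. Its difference of 2.05 ± 0.20 (adjusted p = 5.38e-05) came mostly with arsenite, since TM 1 h stood at 0.812 of DMSO. FAM53C rose 2.52-fold under arsenite (adjusted p = 0.000735) and stood at 0.644 of DMSO at TM 1 h (unadjusted p = 0.0097). POLR2A, the largest subunit of RNA polymerase II, had a difference of 1.95 ± 0.47 (adjusted p = 0.0116), with 77.09, 278.1 and 422.2 CPM at TM 1 h against 508, 511.7 and 493.3 in DMSO.

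The remaining 6 of the 19 had differences of 1.20 to 3.08. They were ARID2, a chromatin remodelling subunit, at 3.08; TIPARP, a mono-ADP-ribosyltransferase, at 1.90; PRRC2C, a stress granule protein, at 1.70; ANKRD17 at 1.30; MIDN, which delivers nuclear proteins to the proteasome, at 1.29; and EIF3L, a translation initiation factor subunit, at 1.20. For MIDN and EIF3L the arsenite arm did not pass after adjustment (edgeR adjusted p = 0.0597 and 0.0711), and MIDN lost its call on the difference without PBS replicate 1 or 3, arsenite replicate 1 or 2 or DMSO replicate 3 (adjusted p of 0.0503 to 0.0625). Each of the 6 had clusters in all 12 libraries. ARID2 alone of them had overlapping TM 1 h and DMSO libraries.

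A promoter stretch of EGR1 is shown because EGR1 and its chromosome 5 neighbour FAM53C both moved oppositely and were the genes of that set whose 250 bases upstream of the RefSeq start (GRCh38.p14) held a CArG box, the element read by serum response factor. Capitals mark the boxes, read on the strand of the gene; the box is palindromic in form, and no overlap with other motifs was examined.
EGR1, chr5:138465359-138465420, + strand: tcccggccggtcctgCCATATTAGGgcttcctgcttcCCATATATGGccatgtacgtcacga
FAM53C, chr5:138338216-138338255, + strand: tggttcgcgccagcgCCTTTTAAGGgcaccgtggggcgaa
Of the oppositely moving genes, 15 had a promoter in the RefSeq table, and 2 of them held a box (13.3%). The share was 2.3% of 87 promoters of genes called higher, 0 of 57 of genes called lower, 1.77% of 735 promoters of tested genes and 1.15% of all 27167 promoters. These are matches of letters in a short window and not measured binding.

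SH3GL1, an endophilin of endocytic membranes, was the named gene with the strongest reverse pattern. It gave 552.6, 403.7 and 727.1 CPM in PBS, 329.4, 221 and 226.1 under arsenite, 406.4, 434.8 and 471 in DMSO, and 971.3, 700.8 and 505.9 at TM 1 h. It fell under arsenite to 0.436 of PBS (edgeR adjusted p = 0.0111), and TM 1 h measured 1.61 times DMSO (unadjusted p = 0.037); the difference was -1.89 ± 0.43 (adjusted p = 0.00866). BPNT2, a Golgi phosphatase of sulfation metabolism, gave 1118, 990.9 and 1264 CPM in PBS, 819.5, 769 and 815.3 under arsenite, 937.9, 1206 and 1222 in DMSO, and 1465, 1552 and 1426 at TM 1 h, with no overlap in either arm and a difference of -0.91 ± 0.20 (adjusted p = 0.00828). Clusters within the span of EFCAB6 had a difference of -1.08 ± 0.25 (adjusted p = 0.00834). Its main region lies 167204 bases from the end of the gene as the cluster strand would place it, and the tables used here give no strand for EFCAB6, so these reads may belong to another transcript.

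The 10 genes with the most negative differences, SH3GL1 among them, fell under arsenite. The other 9 were RHOA, HSBP1, ARPC5, DNAJC9, SGCZ, BANF1, RPL23A, CALM2 and PCDH7, with differences from -2.05 to -1.63 and unadjusted tunicamycin p-values of 0.136 to 0.786. RHOA, the small GTPase that drives actin stress fibres, had 3478, 6679 and 3840 CPM in PBS, 1607, 1437 and 1210 under arsenite, 3509, 2727 and 2522 in DMSO, and 5350, 3153 and 2928 at TM 1 h. All arsenite libraries were below PBS, and TM 1 h and DMSO overlapped. HSBP1, which binds heat shock factor 1, had 845.2, 917.5 and 1002 CPM in PBS, 216.9, 253.3 and 246.6 under arsenite, 711.2, 689.6 and 657.2 in DMSO, and 663, 728.6 and 718 at TM 1 h. It fell to 0.262 of PBS (edgeR adjusted p = 1.35e-05) with a TM 1 h level of 1.03 times DMSO. SGCZ, like EFCAB6, has no strand in the tables, and its main region is far inside the gene span. The calls on DNAJC9 and SGCZ were lost without arsenite replicate 2, DMSO replicate 2 or 3 or TM 1 h replicate 1 or 2, that on DNAJC9 also without arsenite replicate 1, and that on SGCZ also without arsenite replicate 3 or DMSO replicate 1 (adjusted p of 0.0537 to 0.1). An IgG cluster was listed for 2 of the 50 named genes, with 11 reads for RHOA and 5 for P4HB in the IgG library deposited under the arsenite sample; the names of the arsenite and PBS IgG lists are reversed against their samples, so which of these libraries it is remains unsure.

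**Figure D4:**
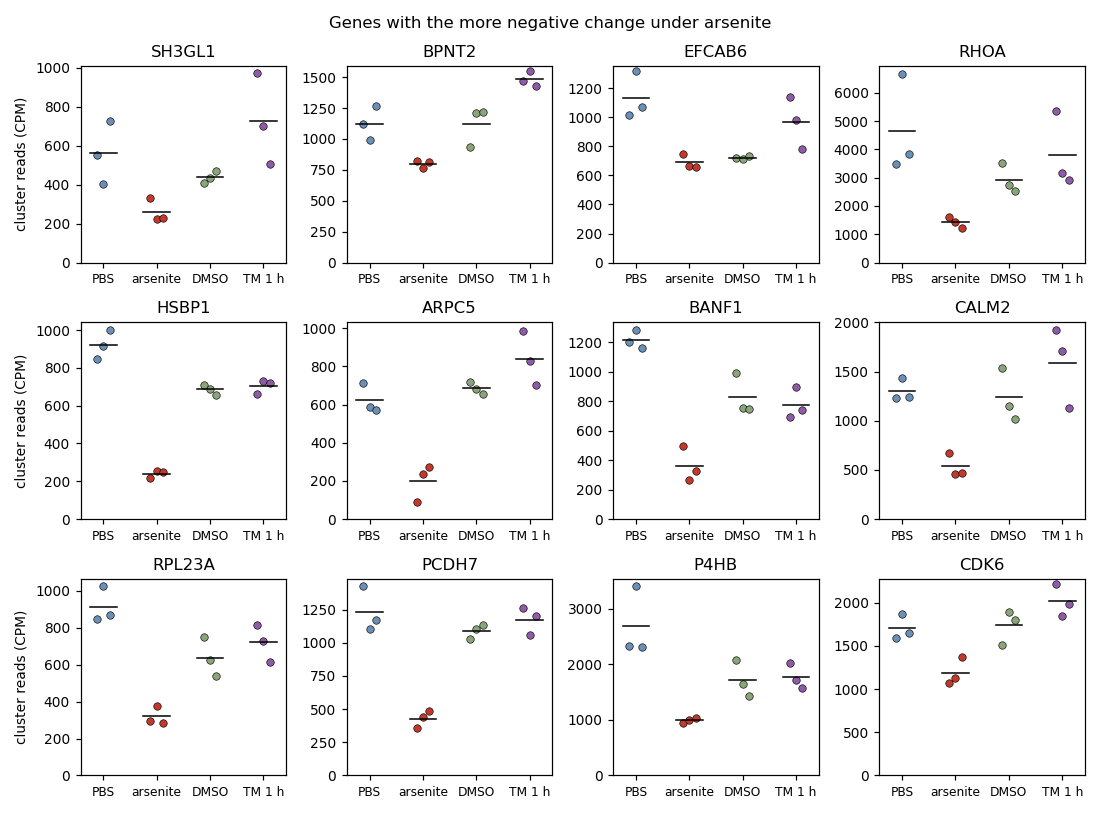
Cluster reads (CPM, scaled over the 891 tested genes) in each of the 12 libraries for 12 genes whose change was more negative under arsenite; points are libraries and bars are group means. Each vertical axis starts at 0 and has its own scale. In HSBP1 the arsenite libraries lay at 216.9 to 253.3 and all others at 657.2 or more.

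Of 27 listed immediate early transcription factors, 25 had clusters and 11 were tested. A gene that reached the mean of 100 reads through its arsenite libraries had to differ, and over the 9 other libraries a mean of 100 was reached by 4 of the 11, which were ATF3, EGR1, FOSL1 and IER2, and by 818 of all 891 tested genes. The difference was called in the positive direction for the 11 (11.7% of the 891 genes were called so), which the filter in large part fixes, and nothing is read from this count. The tunicamycin effect was below 0 for the 11 tested (median -1.36, against -0.005 over all tested genes, of which 450 were below 0), and none passed the adjusted test. Some of the 11, such as FOSB, EGR3 and FOS, were at or near 0 reads in DMSO and TM 1 h, so nothing is read from this median either. Of the 4 that reached the mean without arsenite, EGR1 had a tunicamycin effect of -1.36 and ATF3 of -1.055. Besides the genes above, the list held FOSL1 (difference 1.40 ± 0.23), IER2 (2.35 ± 0.36), KLF6 (2.94 ± 0.83) and NR4A2 (5.51, adjusted p = 0.00385). The call on KLF6 was lost without PBS replicate 3, arsenite replicate 2 or 3, DMSO replicate 3 or TM 1 h replicate 2 (adjusted p of 0.0524 to 0.0864). For FOSL1 and IER2 the tunicamycin effects were small, at -0.12 and -0.16. Of the untested members, JUN had 134, 230 and 445 cluster reads under arsenite and no cluster in the other 9 libraries, and JUNB had 0, 6 and 0 in PBS, 123, 186 and 350 under arsenite, 7, 9 and 48 in DMSO and none at TM 1 h. EGR2 had 120, 275 and 342 reads under arsenite, 0, 0 and 9 in DMSO and none in the other groups. EGR4 (58, 86 and 162) and CSRNP1 (45, 103 and 268) also had their highest counts under arsenite. Some other untested members were not high under arsenite. KLF4 had 20, 0 and 11 reads in PBS, 13, 24 and 55 under arsenite, 0, 23 and 71 in DMSO and 0, 0 and 25 at TM 1 h, and MAFF had 7, 0 and 7 under arsenite, 0, 0 and 37 in DMSO and none in the other groups.

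Among 10 tested feedback inhibitors of signalling and messenger decay, 5 were called in the positive direction and 0 in the negative, where 11.7% and 7.74% of all 891 genes were, with a median difference of 0.75 against 0.016 over all genes. ZFP36 passed the read filter only through its arsenite libraries. The 5 were ZFP36, DUSP5, PLK2, SPRY4, an inhibitor of receptor tyrosine kinase signalling, and BTG2, which recruits the deadenylase complex. SPRY4 and BTG2 had tunicamycin effects of -0.07 and -0.28 and differences of 1.33 and 0.87. The call on SPRY4 was lost without arsenite replicate 1 or 2, DMSO replicate 2 or 3 or TM 1 h replicate 1 or 2 (adjusted p of 0.0579 to 0.0879), and that on BTG2 without PBS replicate 1, arsenite replicate 2 or TM 1 h replicate 2 (0.0525 to 0.0718).

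Cytosolic chaperones, which refold proteins under the control of heat shock factor 1, rose in part under arsenite. Of 8 tested, 6 rose under arsenite (18.1% of all 891 genes did) and 3 were called positive in the difference (11.7% of all), DNAJB1 and HSPA8 among them; 6 of the 8 reached the read minimum without the arsenite libraries. DNAJB1, an HSP40 co-chaperone, gave 357.6, 0 and 225.9 CPM in PBS, 7769, 6424 and 6040 under arsenite, 343.9, 397.5 and 396.2 in DMSO, and 678.4, 584 and 616.8 at TM 1 h. Here TM 1 h lay above DMSO in every library, at 1.61 times its level (unadjusted p = 0.0263), so both arms pointed upward, and the difference was 4.03 ± 0.42 (edgeR adjusted p = 7.28e-05). HSPA8, the constitutive HSP70, rose 3.35-fold under arsenite and measured 1.07 times DMSO at TM 1 h. HSP90AA1 and HSPH1 rose under arsenite by 1.09 and 2.12 (log2), but their differences did not pass (adjusted p = 0.0718 and 0.0727); that of HSP90AA1 passed without PBS replicate 2 or arsenite replicate 3 (adjusted p = 0.011 and 0.0455), and that of HSPH1 without PBS replicate 2 or DMSO replicate 1 (adjusted p = 0.0263 and 0.0418).

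The ER chaperones, which tunicamycin is known to induce over hours, showed no call in the tunicamycin arm, where 0 of the 891 genes had one. Of 6 tested, 2 were called in the negative direction of the difference (7.74% of all 891 genes were), P4HB, a protein disulfide isomerase, and CALR, the lectin chaperone calreticulin. P4HB had 2328, 3413 and 2315 CPM in PBS, 948, 994.7 and 1028 under arsenite, 2079, 1640 and 1424 in DMSO, and 2020, 1724 and 1568 at TM 1 h. Its difference of -1.43 ± 0.26 (edgeR adjusted p = 0.00212) came with a fall under arsenite and a tunicamycin effect of 0.04. HSPA5, the ER HSP70 BiP, had a difference of 0.04 ± 0.38, with effects of 0.28 under arsenite and 0.24 at TM 1 h. CALR had a difference of -0.94 ± 0.31 (adjusted p = 0.0461), and its call was lost without any 1 of 9 libraries, held only when PBS replicate 1, DMSO replicate 1 or TM 1 h replicate 3 was left out (adjusted p up to 0.118). HERPUD1, an ER-associated degradation factor below the test's mean, had 96, 134 and 265 cluster reads under arsenite, 0, 12 and 7 in DMSO, none at TM 1 h, and 6, 0 and 0 in PBS. HSP90B1, the ER HSP90, also untested, had 0, 0 and 17 reads in PBS, 144, 250 and 451 under arsenite, 17, 49 and 98 in DMSO and 6, 12 and 57 at TM 1 h. Both lay higher under arsenite than in the other groups, unlike P4HB and CALR.

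**Figure D5:**
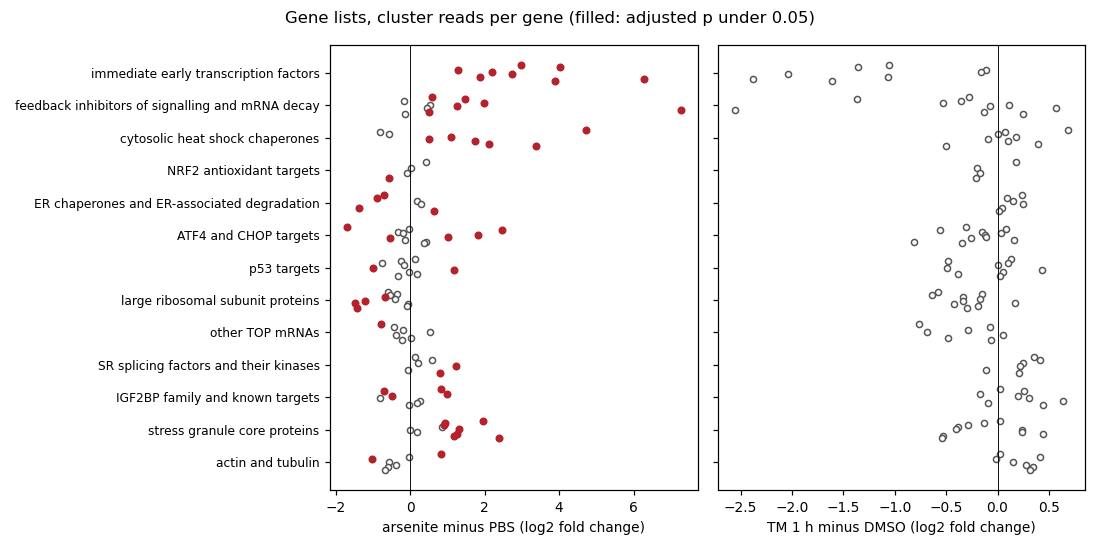
Log2 fold changes of cluster reads for the tested members of gene lists with at least 4 tested genes, under arsenite against PBS (left) and at TM 1 h against DMSO (right); filled points passed an adjusted p of 0.05 in that arm. FOS, FOSB and EGR3, which had no cluster in a whole group, are not drawn. No point is filled on the right.

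Stress granule proteins, which gather with stalled messages after arsenite, had 5 of 10 tested genes called in the positive direction and 0 in the negative, where 11.7% and 7.74% of all 891 genes were. Among these were UBAP2L at 2.92 ± 0.64, ATXN2L at 1.94 ± 0.52 (lost without arsenite replicate 1 or TM 1 h replicate 2, adjusted p = 0.0546 and 0.0605), PRRC2C at 1.70 ± 0.28 and CAPRIN1 at 1.06 ± 0.27. Among 11 tested targets of ATF4 and CHOP, which act downstream of the eIF2-alpha kinases, 3 were called positive (11.7% of all genes), 2 fell under arsenite and the median difference was -0.11; 7 of the 11 reached the read minimum without the arsenite libraries. The 3 were IARS1, an aminoacyl-tRNA synthetase, SESN2, an mTORC1 inhibitor, and SLC38A2, an amino acid transporter; their differences were 3.03, 1.93 and 1.12. Of 10 large ribosomal subunit genes, 4 fell under arsenite (14.4% of all genes) and RPL23A alone was called in the difference (7.74% of all were called lower), at -1.66 ± 0.30; the list's median tunicamycin effect was -0.31, and 9 of the 10 values were below 0, as were 450 of all 891. NRF2 antioxidant targets gave 0 calls in the difference among 4 tested, and p53 targets gave 0 among 9, where 19.4% of all genes were called; so few genes show nothing about the lists. Of 8 tested IGF2BP family members and known targets, CD44, a hyaluronan receptor, was called positive at 1.17 ± 0.23 and CDK6, a G1 kinase, negative at -0.69 ± 0.21. The CDK6 call was lost without PBS replicate 3, arsenite replicate 1 or 2, DMSO replicate 3 or TM 1 h replicate 1 or 3 (adjusted p of 0.0531 to 0.0874). IGF2BP3 itself was under the test's mean, with 29, 0 and 23 cluster reads in PBS, 0, 33 and 56 under arsenite, 11, 104 and 176 in DMSO, and at TM 1 h none in replicate 1, 34 in replicate 2 and the most in replicate 3.

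Genes called higher and lower also differed in median cluster GC content and median gene length. The GC content pooled all clusters of a gene over the 12 libraries, so it depends on which libraries had clusters. Clusters of the 104 genes called higher had a median GC content of 45.2%, those of the 69 genes called lower 38.5%, and those of all 891 genes 41.6%. The median gene length was 41790 bases (quartiles 14590 and 89380) for genes called higher, 23600 (12350 and 40180) for genes called lower and 33260 for all. The main region lay within 3000 bases of the gene's end for 61.5% of the genes called higher, 72.5% of those called lower and 68.6% of all 891. These are descriptions without a test.

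The T-to-C conversion share is a readout of crosslinking other than the read count. It moved with depth: in the genes called higher and in those not called, the library with the fewest reads had the highest share in each of the 4 groups. The genes called higher also held 6.22% of cluster reads in PBS, 21.3% under arsenite, 8.42% in DMSO and 6.604% at TM 1 h, and the part of depth and of read composition in these shares was not tested. In the genes called higher it was 8.80% ± 0.14 (SD, n = 3) in PBS, 9.57% ± 0.08 under arsenite, 8.65% ± 0.27 in DMSO and 8.52% ± 0.31 at TM 1 h. The arsenite libraries did not overlap PBS, and TM 1 h overlapped DMSO. The difference of effects was 0.907 percentage points (exact permutation within each experiment, two-sided p = 0.025; Benjamini-Hochberg over 5 measures 0.125; smallest possible 0.005). In the tested genes that were not called, the shares were 8.09% ± 0.23, 8.57% ± 0.12, 7.79% ± 0.16 and 7.74% ± 0.27, and the difference was 0.535 points (exact p = 0.08, adjusted 0.15). In EGR1 the difference was 1.85 points (exact p = 0.09, adjusted 0.15), and in the genes called lower 0.281 points (exact p = 0.335). The fifth measure, the share of cluster reads from genes longer than the median among genes not called, differed by 3.83 points (exact p = 0.2, adjusted 0.25). None of the 5 passed after adjustment. The genes called higher, called lower or not called were chosen by the same contrast on these libraries. The permutations did not choose them anew, so these p-values give no separate support.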

How the data were processed

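The series is PAR-CLIP of IGF2BP3. The deposited gene table holds raw read counts per gene, and the deposited cluster lists hold a read count per cluster; the submitters' processing notes name bcl2fastq 2.20.0.422, UMI-tools 1.1.1, Trimmomatic 0.30, Bowtie 0.12.7, featureCounts 2.0.1 and the builds GRCh38.p13 and hg38, without roles. The cluster caller is not given in the sources used here. Labels gave the groups. The 12 libraries were fitted together with edgeR 4.0.16 (filterByExpr, TMM, quasi-likelihood test, 1 mean per group; R 4.3.3), with the contrasts stated in the results and a Benjamini-Hochberg threshold of 0.05. CPM are scaled to the TMM-adjusted totals of tested genes. No separate batch term entered the fit.

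Clusters were assigned to RefSeq genes (GRCh38.p14) by midpoint and strand, which placed 79.2% to 86.3% of cluster reads. In 310 of 310 clusters inside a RefSeq promoter window the letters matched. For 156 of 891 tested genes the strand was not in the tables and either strand was accepted. The mean of at least 100 cluster reads was chosen after seeing the data, and so was the wider opposite count, because the gene table could not be named. Reading clusters by gene in place of the gene table departs from the design as written. The design otherwise stands. Fold changes of genes listed at 0 in a whole group are not given.

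The named genes were the 10 largest and 10 smallest called differences, the wider opposite set, up to 4 called genes per list and the IGF2BP genes. Other genes were named after their values were seen. The compared groups, genes and lists were chosen with earlier results of these data known. All within-group replicate pairs differed beyond counting noise. Correlations of same-numbered deviations were -0.003 to 0.0757. The chi-square per gene between replicates was only 1.16 to 1.53, where counting noise alone gives about 1. Such correlations therefore cannot exclude a pairing by replicate number. Replicate 3 of DMSO and of TM 1 h also share a set. Scripts were tested on simulated data. Some results are not reported here.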

Additional observations from a re-analysis of the deposited data

Results flagged for a closer look

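The results below had a called difference of effects (edgeR, adjusted p under 0.05) and libraries that did not overlap in either arm, with the arms in opposite directions. The tests and the overlap use the same libraries, so the 2 criteria are not independent. Of the 26 oppositely moving entries of the gene count table, 22 met this, and the 4 printed by identifier were ENSG00000122877_16 (8.22, log2), ENSG00000179388_9 (7.70), ENSG00000205250_9 (-1.17) and ENSG00000186575_19 (-1.14). In cluster reads they were EGR1 (5.39), KLF10 (4.78), ATF3 (4.03), DUSP5 (2.83), PLK2 (2.52), CLTC (2.05), FAM53C (1.97), POLR2A (1.95), TIPARP (1.90), PRRC2C (1.70), FAT1 (1.52), ANKRD17 (1.30), MIDN (1.29), EIF3L (1.20), BPNT2 (-0.91), EFCAB6 (-1.08) and SH3GL1 (-1.89). NR4A1, also without overlap, had clusters in only 1 PBS library, and no value is given for it. KLF10 passed the read filter only through its arsenite libraries, which favours its rise under arsenite. Groups of 3 libraries were too small for a search for outlying samples.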

How the results depend on the processing

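Of 62 named genes and entries, 46 kept their direction and call under every alternative run. Of 1427 alternative values, 95 lost the call, 13 gained it and 5 changed sign, all of them the uncalled difference of HSPA5 (-0.035 with library totals alone, and -0.177 to 0.236 when 1 library was left out). In the gene table DESeq2 called 868 differences (446 positive, 422 negative), 3 opposite genes (3 and 0), 94 by the wider count and 8 genes at TM 1 h. The voom fit with sample weights gave 11 genes lower under arsenite and higher at TM 1 h. The library set as a covariate gave 10 of these and 90 calls at TM 1 h; the tunicamycin arm within replicates 1 and 2, which share a set, gave 6 opposite genes (5 and 1) and 22 calls at TM 1 h. Without a count filter 447 differences were negative and 0 genes were lower under arsenite and higher at TM 1 h. At a mean count of 50 there were 524 negative differences and 1444 arsenite calls, over fewer genes; the 15-library fit gave 2 genes lower under arsenite and higher at TM 1 h. The replicate block gave 1476 called differences and 33 opposite genes. The correlations of same-numbered libraries could not settle the pairing it assumes. Leaving out 1 library gave 1170 to 1567 called differences, 11 to 30 opposite genes (8 to 26 and 0 to 6) and 30 to 68 calls at TM 1 h.

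For cluster reads, all alternatives were chosen after seeing the data. Library totals alone gave 210 calls, 47.1% of them positive against 60.1% (111 negative), and RLE factors gave 182, 70.3% positive and a median of all genes of 0.12. DESeq2 called 286 (185 positive). The voom fit called 342 (163 positive, 179 negative) and 67 genes by the wider opposite count. Tunicamycin replicates 1 and 2 alone gave 40 negative differences and a mean of 50 reads 44. A mean of 200 reads gave 11 opposite genes and 178 arsenite calls over fewer genes. Genes with a strand in the tables gave 14 opposite genes. Leaving out 1 library gave 115 to 222 called differences, 31 to 95 negative ones and 10 to 49 opposite genes; the lowest counts were without DMSO replicate 3. The causes of these changes were not tested, apart from the fewer genes noted. Depth limits genes of few clusters, above all in PBS replicate 2.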
